A study of Homo sapiens with 4 samples.

Results

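The genes described here are 9 regulators that tie the growth-promoting kinase complex mTORC1 to amino acids and stress. They are the sestrins SESN1, SESN2 and SESN3, the stress-induced inhibitor DDIT4 and DEPTOR, an inhibitor that binds mTOR. The others are the GATOR1 subunit DEPDC5, the Rag GTPases RRAGC and RRAGD, and the Rag regulator FLCN (folliculin). All 9 were taken by symbol from the deposited count table, in which they were found among 20263 genes. All 9 had enough counts to be tested. The cells were MDA-MB-231, a human cell line established from a triple-negative breast cancer, kept for 24 h in medium with 10% serum and either DMSO, the vehicle, or RB-BC. By the series title RB-BC was made from ribociclib, a drug against CDK4 and CDK6; no dose is stated, and since the treatment protocol writes Rib_CA instead, only the sample names tie the treated libraries to RB-BC. Each group had 2 libraries. No label tells whether these were separate cultures, so every p-value rests on the spread between libraries, which may be technical.

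mTORC1 is activated on the lysosome surface, where Rag GTPase pairs (RRAGA or RRAGB with RRAGC or RRAGD) recruit it when amino acids are plentiful. GATOR1, which contains DEPDC5, switches the Rags off, GATOR2 holds GATOR1 back, and sestrins bind GATOR2 when leucine is scarce or the cell is stressed. FLCN acts on RRAGC and RRAGD to let mTORC1 hold the lysosomal transcription factors TFEB and TFE3 in the cytoplasm, DDIT4 (also called REDD1) restrains mTORC1 through the TSC complex, and DEPTOR binds the mTOR kinase itself.

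Libraries held 34774542 to 42786422 counts. DMSO 2 stood apart: genes of the mitochondrial genome took 21.7% of its counts, against 8.68% to 10.3% elsewhere. Once scaled, replicates of the median gene were 0.27 log2 units apart in DMSO and 0.15 in RB-BC. Mesenchymal genes that mark this line (VIM, CD44, AXL, CAV1 and FOSL1) were abundant, with a summed level of 6408 and 8361 CPM (counts scaled to library size, here with TMM factors) in DMSO and 8210 and 8783 in RB-BC, although CAV1 alone stood at 572 and 574 CPM in DMSO and 264 and 272 in RB-BC. The 6 luminal or epithelial markers summed to 26.5 and 39.8 CPM in DMSO and 23.2 and 23.0 in RB-BC, with CDH1 at 2 counts or fewer. Of the leukocyte markers, PTPRC was at 0.58 and 0.39 CPM in DMSO and 1.06 and 1.10 in RB-BC, and CD3E had no count in any library. With the mitochondrial genes removed before scaling, the same 5 of the 9 genes as below were called higher and 0 lower (against 8.77% and 7.59% of tested genes); whether other differences came with that share, and the part of the markers in the results, was not tested.

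SESN2, DDIT4, DEPTOR, RRAGC and RRAGD were higher in RB-BC, and no gene of the 9 was lower. These 5 passed edgeR's quasi-likelihood test at an FDR (p adjusted over all 13744 tested genes by Benjamini-Hochberg) under 0.05, a threshold that 8.58% of tested genes passed as higher and 7.53% as lower. No member was lower with DESeq2 (where 11.9% of tested genes were higher and 11.6% lower), with limma-voom (8.92% and 7.68%) or at an unadjusted edgeR p under 0.05 with all libraries; at that unadjusted level 1 member, SESN1, was lower without DMSO 2. Leaving out DMSO 1 gave 5 members called higher, leaving out DMSO 2 gave 6, and leaving out RB-BC 1 or RB-BC 2 gave 2, fits that called 11.5%, 13.5%, 1.07% and 2.24% of tested genes higher and 11.6%, 12.5%, 0.402% and 0.99% lower. With library totals as the only scaling 4 were higher (against 5.75% of tested genes higher and 3.02% lower), with the replicate number as a block 4 (8.38% and 7%) and with a filter at a mean of 50 counts 6 (9.6% and 8.49%). The median log2 fold change of the 9 was 0.76, against −0.00 for all tested genes. In 8 of the 9 the 2 RB-BC libraries lay wholly above or below the 2 DMSO libraries, as was so for 65.2% of tested genes. In bulk RNA, fewer cells of a kind and less RNA per cell cannot be told apart.

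**Figure D1:**
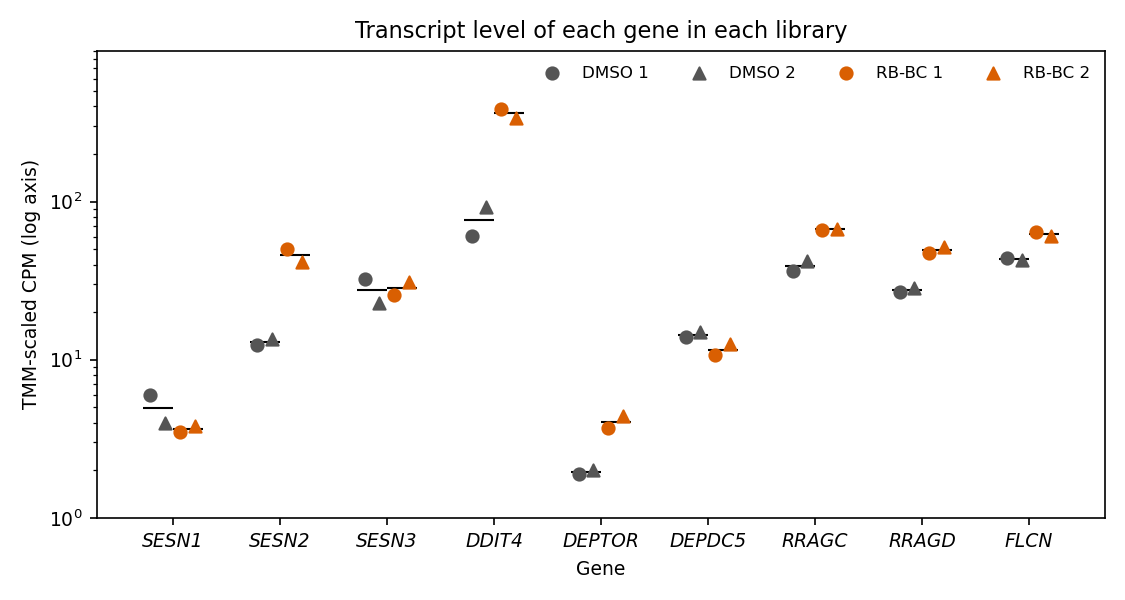
TMM-scaled CPM (log axis) of each of the 9 genes in the 4 libraries, with DMSO in grey, RB-BC in orange, replicate 1 as circles, replicate 2 as triangles and group means as lines. The RB-BC points lie above the DMSO points for SESN2, DDIT4, DEPTOR, RRAGC, RRAGD and FLCN.

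Promoter sequence from RefSeq (GRCh38.p14) was found for 7 of the 9 genes, all but DEPTOR and RRAGD. Windows from 250 bases before to 50 after each start were searched on both strands for TGATGNAA (the ATF4 composite element), CACGTGA (the E-box type bound by TFEB and TFE3), GTAAACA (FOXO) and ACGTG (the hypoxia response core, which CACGTGA contains). The 250 bases before the start are shown for DDIT4 and RRAGC, the members with a match, and for SESN2, the sestrin that rose. They lie at chr1:28259268-28259517 on the plus strand (SESN2), chr10:72273674-72273923 on the plus strand (DDIT4) and chr1:38859773-38860022 on the minus strand (RRAGC). Capitals mark the motif matches.
SESN2: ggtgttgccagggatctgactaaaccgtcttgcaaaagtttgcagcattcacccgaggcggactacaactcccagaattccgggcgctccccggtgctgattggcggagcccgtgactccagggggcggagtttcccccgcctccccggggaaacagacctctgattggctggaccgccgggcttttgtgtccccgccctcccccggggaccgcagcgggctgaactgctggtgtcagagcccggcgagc
DDIT4: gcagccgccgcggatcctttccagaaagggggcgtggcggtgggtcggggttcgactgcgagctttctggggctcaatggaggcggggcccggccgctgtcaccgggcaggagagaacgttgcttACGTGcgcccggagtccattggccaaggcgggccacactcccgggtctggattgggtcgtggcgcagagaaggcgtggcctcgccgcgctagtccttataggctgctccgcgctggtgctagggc
RRAGC: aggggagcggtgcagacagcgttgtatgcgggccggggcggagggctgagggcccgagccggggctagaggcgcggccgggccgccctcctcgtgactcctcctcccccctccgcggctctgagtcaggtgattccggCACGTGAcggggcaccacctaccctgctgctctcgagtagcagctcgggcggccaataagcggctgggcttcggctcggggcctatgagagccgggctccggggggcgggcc

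RRAGC held CACGTGA at position −112 from the start site, a motif present in 3.71% of the 35116 promoter windows of that length. DDIT4 held ACGTG at position −125, and the E-box of RRAGC holds that core on both strands. ACGTG was in 21.4% of all windows. Neither TGATGNAA (3.62% of windows) nor GTAAACA (3.42%) was found in the 11 windows of the members, which says only that those letters are not in these windows.

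Of the inhibitors DDIT4 and DEPTOR, DDIT4 showed the larger difference. It had 60.8 CPM in DMSO 1 and 92.6 in DMSO 2, against 387 in RB-BC 1 and 340.3 in RB-BC 2, from raw counts of 2289, 3104, 16771 and 14917. Both treated libraries were far above both controls, and the controls lay further apart than for most genes, with DMSO 2 the higher. The log2 fold change was 2.24 ± 0.24 (SE; 95% interval 1.67 to 2.82; edgeR FDR = 0.0082), a 4.74-fold rise, and 1.16% of tested genes rose more. The DMSO libraries differed by 0.61 on the log2 scale for DDIT4, where counting error alone gives an SD of 0.040. Without DMSO 1 the log2 fold change was 1.97 and without DMSO 2, whose mitochondrial share was 21.7%, it was 2.58, and it passed in every fit tried. In the GENCODE release 29 annotation an antisense gene, DDIT4-AS1, overlaps 41.2% of the exon bases of DDIT4 on the opposite strand. It has no row in the count table, and how strand was set in the counting is not stated in the labels, so antisense reads cannot be told apart from DDIT4 reads.

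The sestrins did not move together. The level of SESN2 was 12.4 and 13.5 CPM in the DMSO libraries and 50.4 and 41.5 CPM in the RB-BC libraries, from 466, 454, 2187 and 1819 counts. Both treated libraries were far above both controls. The log2 fold change had a 95% interval of 1.41 to 2.25, centred on a 3.55-fold rise (edgeR FDR = 0.0068), and 2.04% of tested genes rose more. It stayed between 1.68 and 1.96 when any 1 library was left out, and the call held in each of those fits.

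SESN1, a sestrin known as a p53 and FOXO target, had 5.95 CPM in DMSO 1 and 3.998 in DMSO 2, against 3.48 in RB-BC 1 and 3.83 in RB-BC 2. Groups did not overlap, but DMSO 2 was close to RB-BC 2 and only DMSO 1 stood clearly above the rest. The log2 fold change was −0.44 ± 0.28 (95% interval −1.12 to 0.23; edgeR FDR = 0.298), so neither no change nor a fall of more than 2-fold lies outside the interval. Without DMSO 1 it was −0.13 and without DMSO 2 it was −0.70 (edgeR FDR = 0.0794).

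SESN3, which FOXO factors induce, had 32.5 CPM in DMSO 1 and 22.8 in DMSO 2, against 25.6 in RB-BC 1 and 30.8 in RB-BC 2, with the groups overlapping. Its log2 fold change was 0.03 ± 0.22 (95% interval −0.50 to 0.56; edgeR FDR = 0.936). For both SESN1 and SESN3 the gap between the DMSO libraries (0.57 and 0.51 on the log2 scale) exceeded the difference between the groups.

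The make-up of the sestrin pool was compared within each library, which needs no scaling between libraries. Counts were divided by exon length (all annotated exons of a gene, over every transcript), so the shares are of a level per length. SESN2 made up 45.8% of the summed sestrin level in DMSO 1 and 57.2% in DMSO 2, against 82.5% in RB-BC 1 and 76.6% in RB-BC 2. Both treated libraries were above both controls, with means of 51.5% ± 8.03 and 79.6% ± 4.12 (SD, n = 2; exact permutation p = 0.333, two-sided, the smallest that 2 against 2 libraries allow; 0.444 after adjustment over the 4 ratios compared here). The share of SESN3 was 39.3% and 31.4% in the controls and 13.7% and 18.6% in the treated libraries, and that of SESN1 was 14.9% and 11.4% against 3.84% and 4.77%. These shares were lower in both treated libraries, while the CPM values of SESN3 overlapped between the groups. The shares were chosen after the changes of these genes were seen, so they restate them and are no separate evidence.

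**Figure D2:**
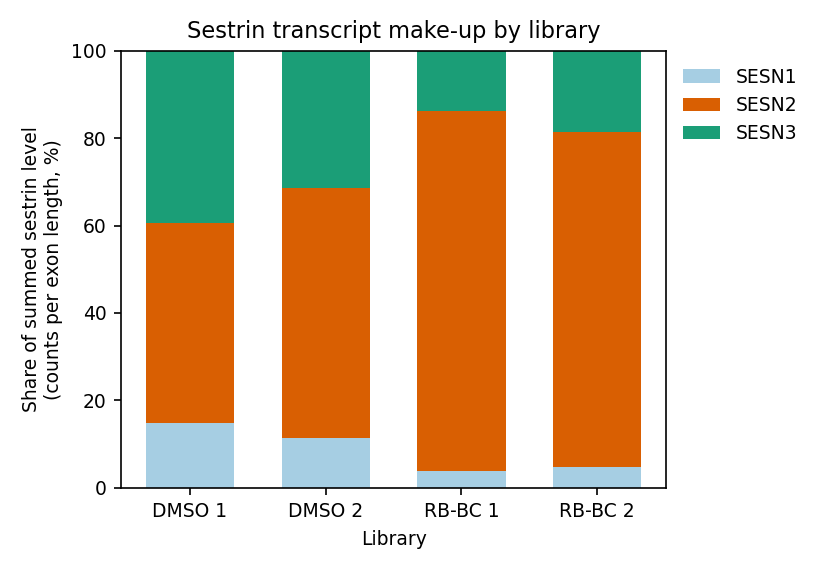
Share of the summed sestrin level (counts per exon length, in percent) taken by SESN1, SESN2 and SESN3 in each library. SESN2 fills 45.8% and 57.2% of the bars in DMSO and 82.5% and 76.6% in RB-BC.

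DEPTOR, the inhibitor bound to mTOR, was scarce. It had 71 counts in DMSO 1 and 67 in DMSO 2, against 160 in RB-BC 1 and 194 in RB-BC 2, or 1.89, 2.00, 3.69 and 4.43 CPM. Both treated libraries were above both controls. The log2 fold change was 1.06 ± 0.26 (95% interval 0.43 to 1.69; edgeR FDR = 0.0432), close to the threshold. DEPTOR was the member whose call was lost most often: without DMSO 1 (edgeR FDR = 0.0611), without RB-BC 1 (0.193), without RB-BC 2 (0.278), with library totals as the only scaling (0.0681) and with the replicate number as a block (0.0559). The log2 fold change was 0.93 to 1.19 in these fits. MTOR, the kinase that DEPTOR binds, went the other way, with 89.3 and 82.1 CPM in DMSO and 49.7 and 53.9 in RB-BC (log2 fold change −0.73 ± 0.14; edgeR FDR = 0.0250). The fall of MTOR did not pass without RB-BC 1 (edgeR FDR = 0.251), without RB-BC 2 (0.150) or with library totals alone (0.0914). Per length, DEPTOR stood at 0.0976 and 0.113 of the MTOR level in the DMSO libraries and at 0.343 and 0.379 in the RB-BC libraries, a ratio 3.44-fold higher on average (exact permutation p = 0.333, adjusted p = 0.444). This ratio was chosen after the changes of both genes were seen, so it restates them and is no separate evidence.

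DEPDC5, the GATOR1 subunit, was near its control level. It had 13.9 CPM in DMSO 1 and 14.9 in DMSO 2, against 10.7 in RB-BC 1 and 12.5 in RB-BC 2, with the treated libraries just below the controls. The log2 fold change was −0.31 ± 0.18 (95% interval −0.75 to 0.12; edgeR FDR = 0.257). A rise of more than 0.12 on the log2 scale lies outside that interval, whereas a fall of up to 0.75 does not. A gene without a row in the table, Z82190.2, shares 10.4% of the exon bases of DEPDC5 on the same strand in GENCODE release 29, and its reads cannot be told apart either.

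RRAGC and RRAGD, the Rag subunits on which FLCN acts, were higher by similar amounts. RRAGC had 36.6 CPM in DMSO 1 and 42.2 in DMSO 2, against 65.9 in RB-BC 1 and 67.5 in RB-BC 2, and RRAGD had 26.7, 28.2, 47.4 and 51.5 in the same order. For each gene the treated libraries lay well clear of the controls, and the replicates were close together. The log2 fold changes were 0.76 ± 0.14 for RRAGC (95% interval 0.40 to 1.11; edgeR FDR = 0.0245) and 0.85 ± 0.14 for RRAGD (95% interval 0.50 to 1.20; edgeR FDR = 0.0185). The size held at 0.66 to 0.86 for RRAGC and 0.79 to 0.91 for RRAGD when 1 library was left out. Neither passed without RB-BC 1 (edgeR FDR = 0.174 and 0.122) or without RB-BC 2 (0.154 and 0.128).

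In GENCODE release 29 AL139260.2 shares 22.9% of the exon bases of RRAGC on the same strand. It has no row in the count table, so reads from it cannot be told apart from RRAGC reads.

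The ratio of RRAGD to RRAGC, per length and within each library, was 0.743 in DMSO 1 and 0.681 in DMSO 2, against 0.733 in RB-BC 1 and 0.777 in RB-BC 2, and the groups overlapped (exact permutation p = 0.667, adjusted p = 0.667). Their partners moved less. RRAGA had 50.2 and 53.6 CPM in DMSO and 65.6 and 68.3 in RB-BC (log2 fold change 0.37 ± 0.13; edgeR FDR = 0.112), and RRAGB was at 0.01 ± 0.16 (edgeR FDR = 0.973). The summed level of RRAGC and RRAGD per length was 0.324 and 0.348 of that of RRAGA and RRAGB in the DMSO libraries and 0.464 and 0.474 in the RB-BC libraries. The treated libraries were both higher, by 1.39-fold on average (exact permutation p = 0.333, adjusted p = 0.444). Both Rag ratios were chosen after the changes of these genes were seen, so they restate them and are no separate evidence.

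FLCN had 44.3 CPM in DMSO 1 and 42.8 in DMSO 2, against 64.5 in RB-BC 1 and 60.5 in RB-BC 2. Although the groups were well apart, the gene fell just short of the threshold (log2 fold change 0.52 ± 0.13; 95% interval 0.19 to 0.85; edgeR FDR = 0.0503). It passed with a mean of at least 50 counts as the filter (edgeR FDR = 0.0452), without DMSO 1 (0.0380), without DMSO 2 (0.0437) and with DESeq2 (adjusted p = 0.0146). It did not pass without RB-BC 1 (edgeR FDR = 0.370) or RB-BC 2 (0.255). In GENCODE release 29 a gene named AC055811.2 shares 11.9% of the exon bases of FLCN on the same strand. It had 15 and 14 counts in DMSO against 37 and 40 in RB-BC, few beside the 1434 to 2799 counts of FLCN, and the labels do not state how shared reads were assigned.

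**Figure D3:**
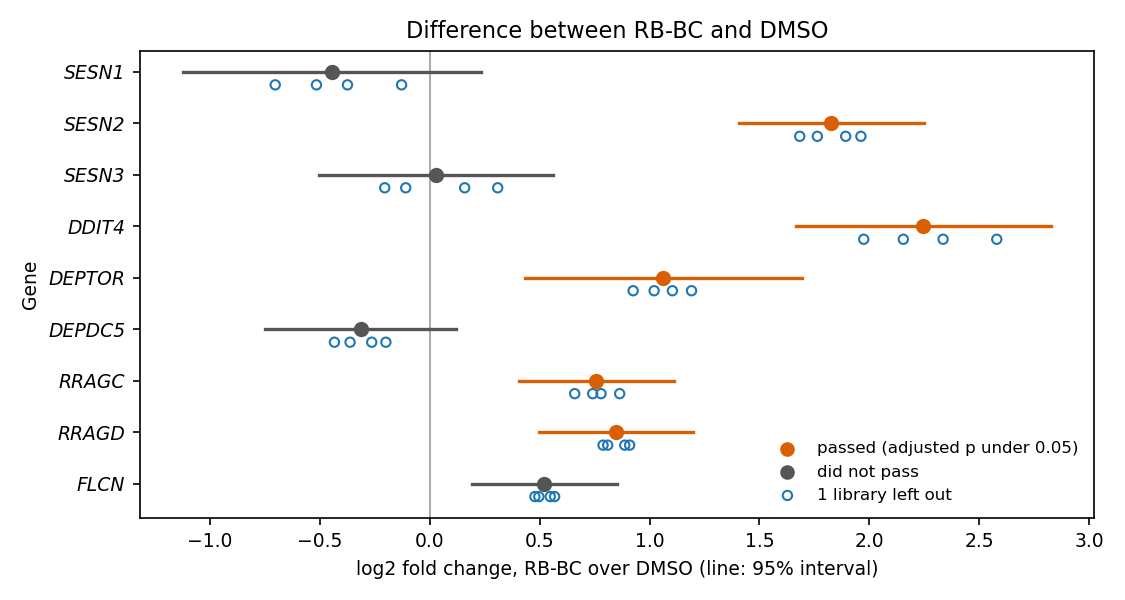
Log2 fold change (RB-BC over DMSO) of each gene with its 95% interval from edgeR, in orange where it passed at an adjusted p under 0.05 and in grey where it did not, with open circles for the fits that leave out 1 library. The open circles stay between 1.68 and 1.96 for SESN2 and fall on both sides of 0 for SESN3.

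The order of levels per length was compared as CPM per kilobase of exon, with the lengths taken from GENCODE release 29, which may not be the annotation used for counting. Each length covers all annotated exons of a gene, over every transcript. A gene whose expressed transcripts are shorter than that comes out too low. DEPDC5, at 17331 bases, had 14.4 CPM in DMSO, and SESN2, at 3453 bases, had 13.0, so their order here turns on length. Other lengths were not tried for this order. In DMSO the order from high to low was DDIT4 (37.3 ± 10.9, SD, n = 2), RRAGC (7.63 ± 0.77), RRAGD (5.42 ± 0.21), FLCN (4.45 ± 0.11), SESN2 (3.75 ± 0.24), SESN3 (2.62 ± 0.65), SESN1 (0.97 ± 0.27), DEPDC5 (0.83 ± 0.041) and DEPTOR (0.74 ± 0.031). Among neighbours in that order, the libraries of SESN1 and DEPDC5 overlapped and those of the other pairs did not. By this measure DDIT4 was high among all tested genes, at percentile 92.7, while DEPTOR, DEPDC5 and SESN1 were at percentiles 18.5, 19.7 and 21.2. In RB-BC SESN2 moved up to second place at 13.3 ± 1.83, where its libraries overlapped those of RRAGC (12.9 ± 0.22). DDIT4 stood at 177 ± 15.9, RRAGD at 9.75 ± 0.56, FLCN at 6.39 ± 0.29, SESN3 at 2.67 ± 0.35 and DEPTOR at 1.55 ± 0.20, above SESN1 at 0.71 ± 0.049 and DEPDC5 at 0.67 ± 0.076, whose libraries overlapped.

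The genes whose pattern over the 4 libraries was most like 7 of the members were found by the Euclidean distance between mean-centred log2 CPM values, among 12188 tested genes with a mean of at least 50 counts. They were MICOS10 for SESN1 (0.0269), TMEM60 for SESN3 (0.0253), APOL6 for DEPTOR (0.0460), CRACR2A for DEPDC5 (0.0082), TMEM268 for RRAGC (0.0222), FCHO1 for RRAGD (0.0410) and NOL4L for FLCN (0.0067). With 4 libraries and so many candidates, some gene will lie close to any pattern.

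Of 66 tested genes of the mTORC1 pathway outside the 9, 7 were higher and 3 lower (15.2%, against 16.1% of all tested genes in either direction), with a median log2 fold change of 0.18. DESeq2 called 9 and 6 of them, where it called 11.9% of all tested genes higher and 11.6% lower. None of the 10 passed without RB-BC 1 or without RB-BC 2, where 7 and 9 genes of the list were higher and 4 and 3 lower at an unadjusted edgeR p under 0.05. With library totals alone 7 were higher and 0 lower (against 5.75% and 3.02% of tested genes), and 6 were lower at an unadjusted edgeR p under 0.05. The median log2 fold change of the list was 0.15 without DMSO 1 and 0.12 without DMSO 2. The shares of all tested genes given here and above also stand beside the counts of each list below.

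In the amino acid sensing arm, 1 of 15 genes passed. KICS2, a subunit of the KICSTOR complex that anchors GATOR1 at the lysosome, had 91 and 59 counts in DMSO against 269 and 340 in RB-BC (log2 fold change 1.74 ± 0.28; edgeR FDR = 0.0162). The GATOR2 subunit SEH1L was at −0.58 ± 0.15 (edgeR FDR = 0.0535) and the KICSTOR subunit ITFG2 at −0.74 ± 0.23 (edgeR FDR = 0.0733). Both of these passed with DESeq2 (FDR = 0.0140 and 0.0430).

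In the Rag and Ragulator platform, which holds the Rags on the lysosome, 2 of 11 genes passed, the Ragulator subunits LAMTOR2 and LAMTOR4. LAMTOR2 had 20.3 and 18.7 CPM in DMSO and 41.2 and 36.5 in RB-BC (log2 fold change 0.99 ± 0.15; edgeR FDR = 0.0156), and LAMTOR4 was at 0.93 ± 0.17. The other Ragulator subunits LAMTOR1, LAMTOR3 and LAMTOR5 were at 0.36, 0.37 and 0.01 and did not pass with all libraries. LAMTOR1 was at 0.62 without DMSO 2 and LAMTOR3 at 0.65 without DMSO 1, so these sizes depended on the DMSO library used.

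Of 15 TSC, RHEB and AMPK genes, through which DDIT4 and energy stress act, 0 passed edgeR's test, as with DESeq2 and limma-voom, and 2 were higher and 1 lower at an unadjusted edgeR p under 0.05. DDIT4L, the paralog of DDIT4, had 44 and 17 counts in DMSO against 92 and 116 in RB-BC (log2 fold change 1.496 ± 0.45; edgeR FDR = 0.0720) and passed without DMSO 1 (2.23, edgeR FDR = 0.0224). STK11, the kinase upstream of AMPK, was at 0.50 ± 0.18 and PRKAA1, a catalytic subunit of AMPK, at −0.35 ± 0.14. Of the TSC complex itself, TSC1 passed as higher without DMSO 2 (1.08, edgeR FDR = 0.0097) and TSC2 as lower without DMSO 1 (−0.53, edgeR FDR = 0.0342), 2 genes named after their values were seen.

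Of 10 tested subunits and assembly factors of the mTOR complexes, MTOR and TELO2, which helps assemble mTOR, were lower and 0 were higher by edgeR, DESeq2 and limma-voom alike. TELO2 was at −0.71 ± 0.16 (edgeR FDR = 0.0375) and did not pass with library totals alone (edgeR FDR = 0.128). Without DMSO 1 RICTOR of mTORC2 passed as higher (0.80, edgeR FDR = 0.0219) and RPTOR of mTORC1 as lower (−0.54, edgeR FDR = 0.0348), and without DMSO 2 the shared subunit MLST8 passed as higher (0.77, edgeR FDR = 0.0248); these were named after their values were seen. PRR5L of mTORC2 was at −0.72 ± 0.23 (edgeR FDR = 0.0803).

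Of 15 substrates and effectors of mTORC1, 4 were higher and 1 lower by edgeR, and 6 and 2 by DESeq2. EIF4B, an initiation factor phosphorylated downstream of mTORC1, had 232 and 197 CPM in DMSO and 471 and 507 in RB-BC (log2 fold change 1.19 ± 0.16; edgeR FDR = 0.0114). The translation repressor EIF4EBP1 rose by 0.95 ± 0.15 on the log2 scale and its target, the cap-binding protein gene EIF4E, fell by 0.66 ± 0.14. The paralogous repressor EIF4EBP2 had 157 and 209 CPM in DMSO and 115 and 122 in RB-BC and was at −0.62 ± 0.18 (edgeR FDR = 0.0670), which passed as lower with DESeq2 (FDR = 0.0172) and without DMSO 1 (−0.81, edgeR FDR = 0.0155). GRB10, an adaptor that mTORC1 stabilises, rose by 0.80 ± 0.13 and the autophagy kinase gene ULK1 by 0.69 ± 0.15. EIF4E, ULK1 and EIF4EBP2 were named after their values were seen, and of the first pair neither passed with library totals alone (edgeR FDR = 0.121 and 0.0681).

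**Figure D4:**
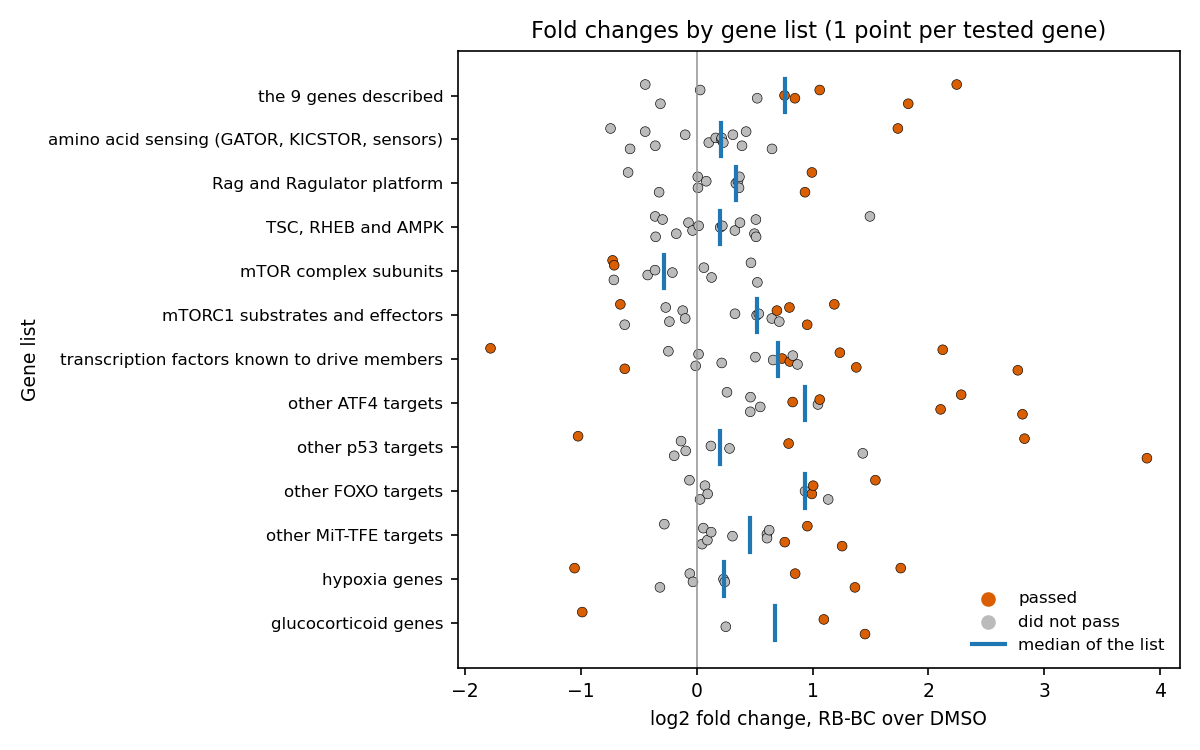
Log2 fold change (RB-BC over DMSO) of every tested gene in each list, 1 point per gene, in orange where it passed and in grey where it did not, with the list's median as a blue line. The 9 genes have a median of 0.76, the other ATF4 targets one of 0.94 and the mTOR complex subunits one of −0.29.

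Transcription factors known to drive these genes were examined next. Only their transcripts were counted, not their activity. Whether any of them caused a change in a member was not tested. ATF4, which induces SESN2 and DDIT4 in the integrated stress response, had 382 and 365 CPM in DMSO and 997 and 943 in RB-BC (log2 fold change 1.38 ± 0.15; edgeR FDR = 0.0085). Its partners DDIT3 and CEBPB were at 2.12 ± 0.27 and 2.77 ± 0.17 and passed in every fit. ATF4 itself did not pass without RB-BC 1 (1.34, edgeR FDR = 0.0657). Of 10 other ATF4 targets 5 were higher and 0 lower by edgeR, 7 and 0 by DESeq2 and 5 and 0 by limma-voom, and none was lower at an unadjusted edgeR p under 0.05. They included CHAC1 (2.81 ± 0.33), NUPR1 (2.28 ± 0.23) and TRIB3 (2.11 ± 0.22), which passed in every fit tried. Their median log2 fold change was 0.94, and the count was 3 with either RB-BC library left out.

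TP73 was lower, with 6.75 and 11.3 CPM in DMSO and 2.14 and 3.10 in RB-BC (log2 fold change −1.78 ± 0.34; edgeR FDR = 0.0246), though not without RB-BC 1 (edgeR FDR = 0.127). TP63 was at 0.87 ± 0.78, with 9 to 82 counts. Of 10 other p53 targets 3 were higher and 1 lower, with GDF15 at 3.89 ± 0.27, CDKN1A at 2.83 ± 0.31 and TIGAR at −1.02 ± 0.17. The third higher gene was FDXR (0.79 ± 0.18). TIGAR was lost when RB-BC 1 (edgeR FDR = 0.132) or RB-BC 2 (0.106) was left out and with library totals alone (0.0537), as was FDXR (0.228, 0.185 and 0.0740). SESN1 and SESN2, both known as p53 targets, thus had log2 fold changes of −0.44 and 1.83.

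FOXO3 and FOXO4, which are known to induce SESN1 and SESN3, were higher, at 0.74 ± 0.16 and 0.80 ± 0.19 (edgeR FDR = 0.0316 and 0.0381), while FOXO1 was at 0.66 ± 0.18 (edgeR FDR = 0.0563). FOXO3 and FOXO4 did not pass without RB-BC 1 (edgeR FDR = 0.178 and 0.256) or RB-BC 2 (0.194 and 0.165), nor did FOXO4 with library totals alone (0.0823) or with the replicate block (0.0550). Of 9 other FOXO targets 3 were higher, TXNIP (1.54 ± 0.17), CCNG2 (0.99 ± 0.17) and BCL6 (1.01 ± 0.22), and TXNIP alone passed when either RB-BC library was left out. SESN3 was at 0.03 in the same libraries.

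TFEB and TFE3, which are known to induce RRAGC, RRAGD and FLCN with other lysosomal genes, did not pass edgeR's test. The RRAGC promoter shown above holds an E-box of the type they bind, as do 3.71% of all windows. Whether they act there was not tested. TFEB had 2.87 and 2.72 CPM in DMSO and 4.96 and 4.97 in RB-BC (log2 fold change 0.83 ± 0.23, edgeR FDR = 0.0578). With DESeq2 TFEB passed narrowly as higher (FDR = 0.04997). TFE3 had 168 and 162 CPM in DMSO but 234 in RB-BC 1 and 99.4 in RB-BC 2, so the treated libraries lay on opposite sides of the controls (log2 fold change 0.02 ± 0.38, or −0.73 without RB-BC 1, edgeR FDR = 0.215). MITF was lower (−0.62 ± 0.15; edgeR FDR = 0.0428), not however without RB-BC 1 (edgeR FDR = 0.333) or RB-BC 2 (0.194), with library totals alone (0.130) or with the replicate block (0.0620), and TFEC had at most 2 counts. Of 12 other targets of these factors 3 were higher, WIPI1 (1.26 ± 0.15), HEXA (0.95 ± 0.14) and CTSD (0.76 ± 0.15), and 0 and 1 were higher without RB-BC 1 and RB-BC 2. None of the 12 was lower at an unadjusted edgeR p under 0.05 with all libraries, but without DMSO 1 ATP6V0D1, a subunit of the lysosomal proton pump, passed as lower (−0.50, edgeR FDR = 0.0397).

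DDIT4 is also a known hypoxia and glucocorticoid target. Its promoter window holds a hypoxia core, as do 21.4% of all windows, and whether that core is used here was not tested. HIF1A was at 0.22 ± 0.15 and EPAS1, which encodes HIF-2 alpha, at 1.24 ± 0.14 (edgeR FDR = 0.0085, or 0.0605 without RB-BC 1). Of 9 tested hypoxia genes 3 were higher, VEGFA (1.76 ± 0.29), NDRG1 (1.37 ± 0.16) and BNIP3 (0.85 ± 0.16), and EGLN3 was lower (−1.05 ± 0.23; not without RB-BC 1 or RB-BC 2, or with library totals alone, where its FDR was 0.209, 0.141 and 0.0602). CA9 was too scarce to test, with at most 14 counts. The glucocorticoid receptor NR3C1 was at −0.01 ± 0.15, and its targets KLF9 (1.45 ± 0.18) and TSC22D3 (1.10 ± 0.18) were higher while FKBP5 was lower (−0.99 ± 0.16). The hypoxia list had 0 and 2 higher genes without RB-BC 1 and RB-BC 2, and the glucocorticoid list 0 and 1, with 0 lower in both. NFE2L2, which is known to induce SESN2, had 97.3 and 97.9 CPM in DMSO and 62.8 and 102 in RB-BC (log2 fold change −0.24 ± 0.24).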

How the data were processed

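The authors deposited 1 table of whole-number read counts per human Ensembl gene, with 1 column per library and no normalization that the values show. The aligner, the counter, the annotation and the strand setting were not given in the sources used here, but the submitters' processing notes name the builds GRCm38 and mm10, which are mouse assemblies, so no coordinates of counted genes are given. Per the labels' protocols, libraries were made from 1.4 µg of RNA.

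Groups and replicate numbers came from the sample titles. Gene symbols were matched through an identifier table (20148 genes) and GENCODE release 29 (76), and 39 identifiers had none. The filter was filterByExpr with a minimum count of 10 and a minimum total of 15; the 13744 genes it left were scaled by TMM and tested two-sided with edgeR 4.0.16 (quasi-likelihood) in R 4.3.3, with Benjamini-Hochberg adjustment over all tested genes and a threshold of 0.05. Intervals use the test's SE and degrees of freedom. Alternatives were RLE factors, library totals, no filter, a mean of 50 counts, DESeq2 1.42.0, limma-voom (limma 3.58.1), a replicate block, mitochondrial genes removed, and leaving out each library. For ratios within libraries, leaving out each library and counts not divided by exon length were added after seeing the data. The test was tried on simulated counts for this comparison over 13586 genes. It recovered 12.2% of 49 genes at a 1.5-fold change, 48.0% of 50 at 2-fold, 96.0% of 50 at 4-fold and 95.8% of 48 at 8-fold. Beside these 6, 24, 48 and 46 recovered genes stood 25 false calls. That is a larger share of the calls than the threshold of 0.05 aims at.

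The 9 members and all gene lists were chosen with earlier results of these data known. The genes named are the 9 members, in each list the 3 tested genes lowest in adjusted p at most, the transcription factor list whole, and the gene nearest in pattern to a member; a few of them are not reported here. The ratios and a few genes that complete a small count were chosen after their values were seen. Overlaps with other genes are from GENCODE release 29. There, antisense genes also overlap SESN1 (AL390208.1, 7.09% of exon bases) and SESN3 (AP000787.1, 0.88%), and neither has a row in the count table.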

Additional observations from a re-analysis of the deposited data

How the results depend on the processing

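Of 108 member results (9 log2 fold changes under 12 alternatives), 93 kept their direction and side of the threshold. The calls of SESN2 and DDIT4 held in all 12. In 9 cases a call was lost and in 4 one was gained, the latter all for FLCN. SESN3, which did not pass in any fit, changed sign in 2 fits, without DMSO replicate 2 (−0.20) and without RB-BC replicate 2 (−0.11), with a range of −0.20 to 0.31 over the fits without 1 library. Members called higher numbered 2 to 6 when 1 library was left out, 4 with the replicate block and 4 to 6 under the other alternatives. Members called lower numbered 0 throughout, by edgeR, DESeq2 and limma-voom. Genes called higher ranged from 149 to 1888 and lower from 56 to 1760 when 1 library was left out, and lower calls numbered 415 with library totals alone and 1589 with DESeq2, against 1179 and 1035 in the main comparison. With library totals alone 790 were higher. Pathway genes called higher ranged from 0 to 12 and lower from 0 to 7 when 1 library was left out, and lower calls numbered 0 with library totals alone and 6 with DESeq2.

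When 1 library was left out, the difference in the SESN2 share ranged from 22.4 to 33.7 percentage points, and the log2 differences ranged from 0.022 to 0.149 for the RRAGD to RRAGC ratio, from 0.429 to 0.532 for the ratio of RRAGC and RRAGD to RRAGA and RRAGB, and from 1.68 to 1.89 for the DEPTOR to MTOR ratio.

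The replicate numbers are shared by the groups, but no label says that they mark a shared culture or day. The correlation of same-numbered deviations over 13744 genes was −0.034. With the replicate block 1152 genes were higher and 962 lower, and DEPTOR was the 1 member that lost its call. A fit without 1 library takes its spread from the other group, with the lone library assumed to vary alike. Depth limits DEPTOR most, where counting error alone gives an SD of 0.25 for the log2 gap between the DMSO libraries.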
